A study of Mus musculus with 6 samples.

Results

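The genes described here make up the MHC class I antigen presentation machinery of cultured mouse embryonic fibroblasts (MEFs), the matrix-producing cells of connective tissue. They are 10 named genes, taken as the rows of the deposited TPM (length-scaled transcript abundance at a fixed total per library) table with those gene names, of 22355 rows in all: the class I heavy chains H2-K1, H2-D1, H2-Q4 and H2-T23, the light chain B2m, the peptide transporter subunits Tap1 and Tap2, the loading factor Tapbp, and the immunoproteasome subunits Psmb8 and Psmb9. The study compared 3 libraries of MEFs transfected with a negative control siRNA (siControl) with 3 transfected with an siRNA against Hk2 (siHk2), which encodes hexokinase 2, an enzyme that phosphorylates glucose at the entry to glycolysis. All 6 libraries were poly(A)-enriched bulk RNA. The sources used here give neither the strain and passage of the cells nor the time after transfection. The series carries a title on liver injury, and no liver sample was analysed here.

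MHC class I molecules display short peptides from inside the cell to CD8 T cells. Peptides are cut in the cytosol by the proteasome, carried into the endoplasmic reticulum by the Tap1 and Tap2 transporter, and loaded, with the help of tapasin (Tapbp), onto a heavy chain paired with beta-2 microglobulin. Almost all nucleated cells make these proteins at a basal level, and interferons raise the heavy chains, the transporter and the immunoproteasome subunits, which replace the constitutive catalytic subunits of the proteasome.

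Hk2 itself stood at 57.1, 62.5 and 58.9 TPM in siControl libraries 4, 5 and 6 (the numbers their columns carry) and at 22.4, 21.4 and 21.8 TPM in siHk2 libraries 1, 2 and 3. It fell by 1.40 on the log2(TPM + 1) scale (adjusted p = 0.000222). Here and throughout, adjusted p-values come from limma fitted to log2(TPM + 1) over all 13341 genes averaging at least 1 TPM, with Benjamini-Hochberg adjustment over all of them, and a gene is called changed below 0.05. TPM keeps no depth, so the sequencing depth behind these values is unknown. The labels do not say whether separate cultures were used for the libraries within a group, so these p-values measure the spread between the samples, which may be technical.

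All 10 class I presentation genes were detected in every library and tested. Of them 3 rose in siHk2 (H2-D1, H2-Q4 and Psmb8), none fell, and 7 did not pass. Across all tested genes 13.6% were called, 6.15% as higher and 7.42% as lower. The fold change was above 0 for 9 of the 10, against 51.2% of all tested genes, and the median log2 fold change of the 10 was 0.17, against 0.0066 over all tested genes. The siHk2 libraries lay wholly above the siControl libraries for 4 of the 10 (H2-K1, H2-D1, H2-Q4 and Psmb8) and wholly below for none. Over all tested genes 35.7% had groups that did not overlap, 17.6% with siHk2 higher and 18.1% with siHk2 lower. The same 4 had an unadjusted p under 0.05 in limma, against 30.7% of all tested genes. With any one siHk2 library left out, none of the 10 passed in limma, with 4, 5 and 3 of them at an unadjusted p under 0.05 without siHk2 1, 2 and 3. Over all genes 6.53, 5.36 and 3.79% were called in those same fits. The 30.7% comes from the fit of all 6 libraries. No share of all genes at an unadjusted p is given for fits with libraries left out. Without siControl 4, 5 or 6 the number that passed was 1, 2 or 4, where 4.97, 11.6 and 15.9% of all genes were called. These are bulk libraries, so more RNA per cell and more cells of one kind cannot be told apart.

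**Figure D1:**
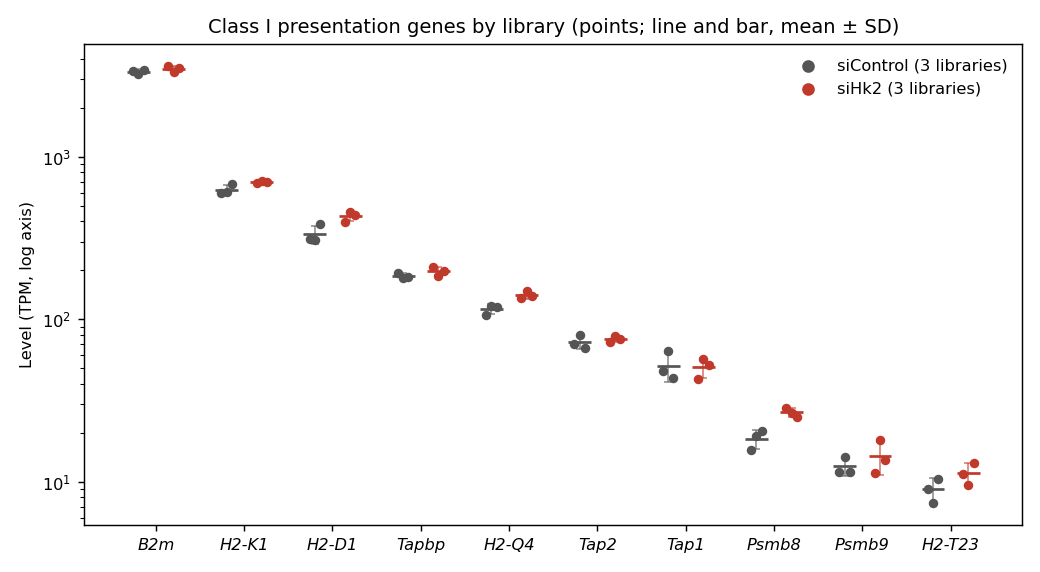
TPM of each class I presentation gene (log axis) in the 3 siControl and 3 siHk2 libraries, ordered by mean, with points for libraries and lines and bars for mean ± SD. Levels run from B2m, the most abundant, to H2-T23, the least, and the groups separate for H2-K1, H2-D1, H2-Q4 and Psmb8.

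**Figure D2:**
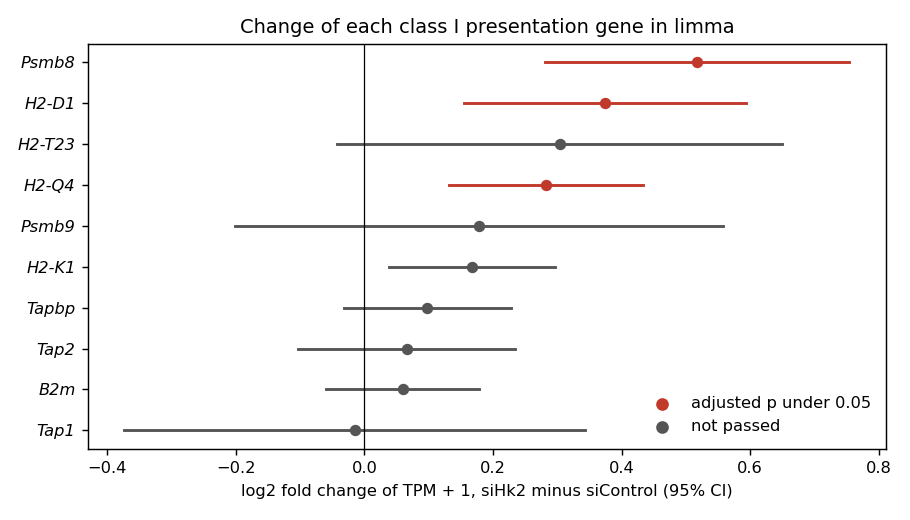
log2 fold change of TPM + 1 (siHk2 minus siControl) of each gene with its 95% confidence interval from limma. Psmb8, H2-D1 and H2-Q4, drawn in red, passed an adjusted p of 0.05, and the other 7 did not.

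The heavy chains are the polymorphic part of the class I molecule that holds the peptide. The promoters of H2-K1, H2-D1 and H2-Q4 are shown first because they are near-copies of each other. They hold a kB site and an interferon response element at the same spacing. The promoter of Tap1 is shown because the letters searched for these motifs had no match in it, and other forms were not searched. The windows run from 250 bases before to 50 after the start site in RefSeq (GRCm38.p6), each 5′ to 3′ on the strand of the gene. Capitals mark, in order, the kB site, the interferon response element and the Y box on either strand. The windows lie at chr17:34000298-34000597 on the minus strand for H2-K1, and on the plus strand at chr17:35262844-35263143 for H2-D1, chr17:35379367-35379666 for H2-Q4 and chr17:34187306-34187605 for Tap1.
H2-K1: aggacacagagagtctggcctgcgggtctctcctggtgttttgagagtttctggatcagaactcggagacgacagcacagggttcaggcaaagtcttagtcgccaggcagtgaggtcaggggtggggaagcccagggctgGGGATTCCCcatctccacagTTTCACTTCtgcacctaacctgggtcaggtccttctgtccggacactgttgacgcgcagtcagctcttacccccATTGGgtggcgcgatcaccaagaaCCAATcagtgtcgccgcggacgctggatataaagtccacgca
H2-D1: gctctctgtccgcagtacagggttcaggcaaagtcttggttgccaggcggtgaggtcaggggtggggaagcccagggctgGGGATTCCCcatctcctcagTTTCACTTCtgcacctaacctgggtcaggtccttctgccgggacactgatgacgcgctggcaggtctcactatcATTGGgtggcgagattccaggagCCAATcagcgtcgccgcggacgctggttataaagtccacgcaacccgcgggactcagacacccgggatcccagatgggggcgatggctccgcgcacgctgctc
H2-Q4: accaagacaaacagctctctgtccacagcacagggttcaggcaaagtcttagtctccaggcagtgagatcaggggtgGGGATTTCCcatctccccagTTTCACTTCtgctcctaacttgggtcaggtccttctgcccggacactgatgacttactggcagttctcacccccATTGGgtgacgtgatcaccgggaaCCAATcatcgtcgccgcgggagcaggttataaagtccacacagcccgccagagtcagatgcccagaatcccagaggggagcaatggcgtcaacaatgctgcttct
Tap1: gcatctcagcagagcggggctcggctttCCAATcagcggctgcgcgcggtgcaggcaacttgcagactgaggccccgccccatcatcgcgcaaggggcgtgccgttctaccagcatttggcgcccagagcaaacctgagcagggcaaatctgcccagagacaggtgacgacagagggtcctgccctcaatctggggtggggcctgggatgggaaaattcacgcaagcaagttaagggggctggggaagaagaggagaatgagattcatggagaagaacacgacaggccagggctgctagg

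H2-K1 encodes the K heavy chain, the most abundant of the 4 here. It (ENSMUSG00000061232, chromosome 17, 34214991 to 34219321 on the minus strand, GRCm39) stood at 596, 603 and 676 TPM in siControl and at 692, 709.9 and 700.1 TPM in siHk2. The lowest siHk2 library lay above the highest siControl library, siControl 6, which stood apart from the other two controls. The mean went from 625 ± 44.4 to 701 ± 8.88 TPM (SD, n = 3 each), a log2 fold change of 0.17 (SE 0.0552, 95% CI 0.04 to 0.30, adjusted p = 0.0857 in limma), so H2-K1 did not pass. It passed when siControl 6 was left out (adjusted p = 0.00728 in limma).

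H2-D1 encodes the D heavy chain, the other classical class I molecule among the 4. It (ENSMUSG00000073411, chromosome 17, 35481706 to 35486475 on the plus strand) was measured at 311, 309 and 383 TPM in siControl and at 398, 459.6 and 439 TPM in siHk2. Again the groups did not overlap, and siControl 6 lay closest to the siHk2 libraries. The mean rose from 334 ± 42.5 to 432 ± 31.3 TPM (SD, n = 3 each), 1.29 times, with a log2 fold change of 0.37 (SE 0.0938, 95% CI 0.16 to 0.59, adjusted p = 0.0401 in limma). The call was lost without siControl 4 (adjusted p = 0.134 in limma), siControl 5 (0.0819), siHk2 1 (0.0591), siHk2 2 (0.125) or siHk2 3 (0.129), and it was kept only without siControl 6. It was also lost with no filter on low genes (0.0932) and with no mean-variance trend (0.0849).

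H2-Q4, a gene of the Q region that encodes a nonclassical class I chain, was the third heavy chain in level. It (ENSMUSG00000035929, chromosome 17, 35598593 to 35604266 on the plus strand) had 106, 121 and 119 TPM in the controls and 134, 149 and 138 TPM in siHk2. All 3 siHk2 libraries lay above all 3 controls. The mean rose from 115 ± 7.87 to 140.3 ± 7.65 TPM (SD, n = 3 each), 1.22 times, with a log2 fold change of 0.28 (SE 0.0646, 95% CI 0.13 to 0.43, adjusted p = 0.0306 in limma). The call was lost without siControl 4 (adjusted p = 0.0876 in limma), siHk2 1 (0.0586), siHk2 2 (0.104) or siHk2 3 (0.0962), and with no filter (0.0610) or no mean-variance trend (0.0719).

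H2-T23 encodes Qa-1, a nonclassical chain that presents peptides from the leader sequences of other class I chains to receptors on natural killer cells. It (ENSMUSG00000067212, chromosome 17, 36340665 to 36343747 on the minus strand) stood at 9.04, 7.38 and 10.4 TPM in siControl and at 11.2, 9.53 and 13.05 TPM in siHk2. The groups overlapped, with siHk2 2 below siControl 6. The means were 8.95 ± 1.52 and 11.3 ± 1.76 TPM (SD, n = 3 each), a log2 fold change of 0.30 (SE 0.148, 95% CI -0.04 to 0.65) that did not pass (adjusted p = 0.216 in limma).

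Added up, the 4 heavy chains came to 1022, 1039.9 and 1188 TPM in siControl and to 1236, 1328 and 1290.1 TPM in siHk2, without overlap. H2-K1 made up 58.3, 58.0 and 56.9% of that sum in siControl and 56.0, 53.5 and 54.3% in siHk2, again without overlap. H2-D1 made up 30.4, 29.7 and 32.3% in siControl and 32.2, 34.6 and 34.0% in siHk2, and these ranges overlapped. Within each library the order was the same, H2-K1 above H2-D1 above H2-Q4 above H2-T23. Heavy chain transcripts resemble each other: 8.79% of the 50-base windows of H2-K1, 14.3% of H2-D1, 24.3% of H2-Q4 and 28.8% of H2-T23 also occur in transcripts of another gene of the GENCODE M21 annotation, so reads there may have been split between genes. H2-K1 and H2-D1 are highly polymorphic between mouse strains, and the fit of the reference to these cells was not tested.

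The 3 heavy chain promoters printed above match each other closely. H2-K1 and H2-D1 shared 89.5% of 239 aligned bases, with an identical run of 47 bases. H2-K1 and H2-Q4 shared 86.1% of 237, and H2-D1 and H2-Q4 shared 83.1% of 284. Each of them against H2-T23 reached 58.0 to 64.0%. All 3 hold the kB site GGGATTNCC, a form bound by NF-kB factors, and 20 bases downstream the interferon response element TTTCNNTTC, a form bound by interferon regulatory factors.

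Searched on both strands, GGGATTNCC occurred in 0.938% of 32851 RefSeq promoter windows of this length and TTTCNNTTC in 7.52%. Among the 9 class I presentation genes with a window (Tap2 has no entry) each was found in H2-K1, H2-D1 and H2-Q4 and in no other. Over all windows the pair at that spacing occurred in 4 genes, these 3 and H2-Q6, whose level was at most 0.23 TPM in every library and which was not tested. The letters were chosen with the class I promoters in view, and the spacing is that of these near-copies. Their matches are therefore no test against the shares over all windows. The Y box CCAAT, bound by NF-Y, was in 8 of the 9 (37.4% of all windows), the CRE core TGACG in 6 (20.8%), and the TATA box letters TATAAA in 5 (13.6%). Counted in bases from the start site, TATAAA lay shortly before it in H2-D1 (-26) and H2-Q4 (-28). In H2-K1 (35), Psmb8 (-237) and B2m (-152, on the opposite strand) it lay elsewhere. The windows of Tap1 and Psmb9 overlap by 275 bases, and the Y box and the CRE core of both are the same sites, counted once for each gene. Matches of different motifs did not overlap. A match is a run of letters, not a measured binding site.

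**Figure D3:**
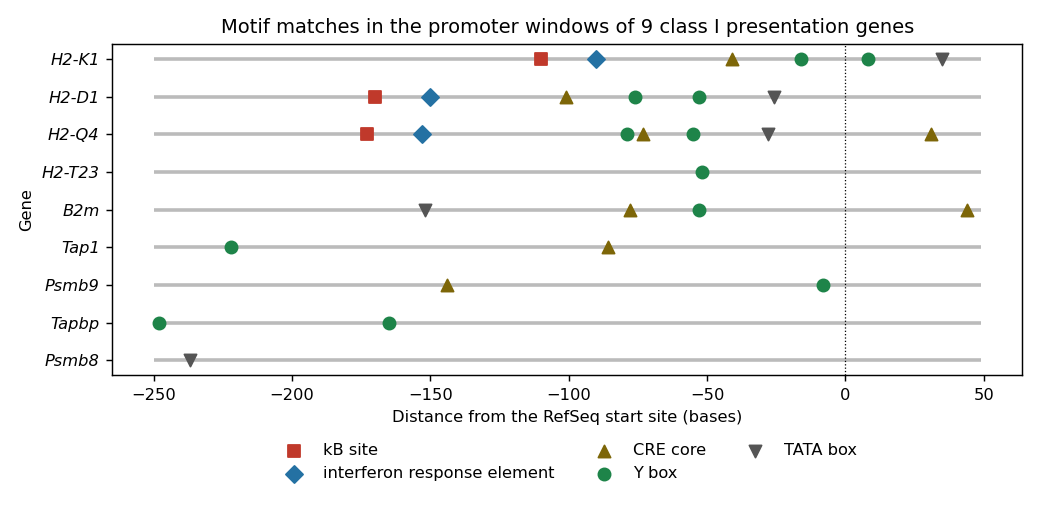
Positions of motif matches relative to the RefSeq start site (bases, x axis) in the promoter windows of 9 class I presentation genes (grey lines, from 250 before to 50 after the start). The kB site and the interferon response element appear side by side in H2-K1, H2-D1 and H2-Q4 and are not matched in the other 6. The kB site lies at -110 in H2-K1, -170 in H2-D1 and -173 in H2-Q4. The RefSeq start used for H2-K1 falls earlier in the matching sequence.

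B2m encodes beta-2 microglobulin, the invariant light chain that every class I heavy chain needs to reach the cell surface, and was the most abundant of the 10. It (ENSMUSG00000060802, chromosome 2, 121978167 to 121983564 on the plus strand) stood at 3383, 3225 and 3429.7 TPM in siControl and at 3615, 3338 and 3507 TPM in siHk2. The groups overlapped, and library 5 of siControl and library 2 of siHk2 were the lowest of their groups. The means were 3346 ± 107 and 3487 ± 139.6 TPM (SD, n = 3 each), with a log2 fold change of 0.059 (SE 0.0506, 95% CI -0.06 to 0.18, adjusted p = 0.480 in limma).

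For each TPM of heavy chain there were 3.31, 3.10 and 2.89 TPM of B2m in the siControl libraries and 2.93, 2.51 and 2.72 in the siHk2 libraries. The means were 3.10 ± 0.213 and 2.72 ± 0.206 (SD, n = 3 each), and the ranges overlapped because siControl 6 lay below siHk2 1. B2m transcripts were in excess of the summed heavy chains in every library.

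Tap1 and Tap2 together form the peptide transporter. Tap1 (ENSMUSG00000037321, chromosome 17, 34406527 to 34416199 on the plus strand) stood at 48.0, 63.3 and 43.3 TPM in siControl and at 42.9, 57.1 and 52.0 TPM in siHk2. Tap2 (ENSMUSG00000024339, chromosome 17, 34422501 to 34435295 on the plus strand) stood at 70.3, 79.7 and 66.6 TPM in siControl and at 72.3, 78.4 and 75.7 TPM in siHk2. Both overlapped between groups, and both were highest in siControl 5 among the controls and in siHk2 2 among the knockdown libraries. The mean of Tap1 was 51.5 ± 10.5 against 50.7 ± 7.24 TPM (SD, n = 3 each), a log2 fold change of -0.015 (SE 0.153, 95% CI -0.37 to 0.34, adjusted p = 0.960 in limma). The mean of Tap2 was 72.2 ± 6.76 against 75.4 ± 3.05 TPM (SD, n = 3 each), a log2 fold change of 0.066 (SE 0.0724, 95% CI -0.10 to 0.23, adjusted p = 0.590 in limma). The fold change of Tap1 changed sign when single libraries were left out, from -0.13 to 0.14, and its interval allows changes of that size either way.

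Tapbp encodes tapasin, which bridges the transporter and the empty class I molecule. It (ENSMUSG00000024308, chromosome 17, 34134873 to 34148266 on the plus strand) stood at 192, 179 and 183 TPM in siControl and at 209, 185 and 199 TPM in siHk2, which overlapped. The means were 185 ± 7.04 and 198 ± 11.9 TPM (SD, n = 3 each), a log2 fold change of 0.098 (SE 0.0558, 95% CI -0.03 to 0.23, adjusted p = 0.284 in limma). Tapbp shares 3422 bases with Zbtb22 on the same strand (63.9 to 74.6 TPM), so reads there may belong to either gene.

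Psmb8 (LMP7) and Psmb9 (LMP2) are catalytic subunits of the immunoproteasome. Psmb8 (ENSMUSG00000024338, chromosome 17, 34416695 to 34420428 on the plus strand) stood at 15.7, 19.0 and 20.4 TPM in siControl and at 28.4, 26.4 and 25.1 TPM in siHk2. Every siHk2 library lay above every control, and the gap between the groups was about as wide as the spread within siControl. The mean rose from 18.4 ± 2.41 to 26.7 ± 1.67 TPM (SD, n = 3 each), 1.45 times, with a log2 fold change of 0.52 (SE 0.101, 95% CI 0.28 to 0.75, adjusted p = 0.0188 in limma). This was the greatest fold change of the 10 and stood at percentile 96.4 of all tested genes. The call was kept without each siControl library and lost without siHk2 1 (adjusted p = 0.0649 in limma), siHk2 2 (0.0628) or siHk2 3 (0.0586).

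Psmb9 (ENSMUSG00000096727, chromosome 17, 34400961 to 34406738 on the minus strand) stood at 11.4, 14.3 and 11.5 TPM in siControl and at 11.4, 17.9 and 13.7 TPM in siHk2. The groups overlapped, and siHk2 2 was the highest of the 6. The means were 12.4 ± 1.61 and 14.3 ± 3.33 TPM (SD, n = 3 each), a log2 fold change of 0.18 (SE 0.162, 95% CI -0.20 to 0.56, adjusted p = 0.509 in limma). The ratio of Psmb8 to Psmb9 was 1.38, 1.33 and 1.77 in siControl and 2.50, 1.47 and 1.84 in siHk2, which overlapped. Whether Psmb8 differed in its change from Psmb9 was not tested.

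The immunoproteasome subunits Psmb8, Psmb9 and Psmb10 replace the constitutive subunits Psmb5, Psmb6 and Psmb7. Together the immune forms made up 8.94, 10.4 and 9.47% of the transcripts of these 6 subunits in siControl and 11.4, 11.1 and 10.2% in siHk2. The mean share was 9.59 ± 0.730% and 10.9 ± 0.637% (SD, n = 3 each), and siControl 5 lay above siHk2 3. The difference of 1.28 percentage points gave an exact two-sided permutation p of 0.2, where 3 against 3 libraries cannot go below 0.1. By pair, Psmb8 made up 8.89% of Psmb8 plus Psmb5 in siControl and 10.2% in siHk2 (exact permutation p = 0.3), Psmb9 5.42 and 5.97% of Psmb9 plus Psmb6 (p = 0.6, exact permutation), and Psmb10 17.2 and 20.2% of Psmb10 plus Psmb7 (p = 0.1, exact permutation, the smallest possible).

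The constitutive partner of Psmb8, Psmb5, was also higher in each siHk2 library than in each control. Psmb5 averaged 190.2 ± 30.6 and 235 ± 7.45 TPM (SD, n = 3 each), without overlap, with a log2 fold change of 0.31 that did not pass (adjusted p = 0.0856 in limma). Without siControl 6 it passed (adjusted p = 0.00516 in limma). Psmb6 (216 ± 6.57 against 224 ± 12.2 TPM, adjusted p = 0.565 in limma), Psmb7 (121 ± 0.360 against 113 ± 1.89 TPM, adjusted p = 0.138) and Psmb10 (25.2 ± 2.13 against 28.8 ± 1.99 TPM, adjusted p = 0.170) did not pass either.

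Psmb9, Tap1, Psmb8 and Tap2 lie next to each other in 34.3 kb of the MHC on chromosome 17, from 34400961 to 34435295 (GRCm39). Psmb9 runs leftward and the other 3 rightward. Psmb9 and Tap1 overlap by 212 bases at their starts, 495 bases separate Tap1 from Psmb8, and 2072 bases separate Psmb8 from Tap2. In RefSeq (GRCm38.p6) the start sites of Tap1 and Psmb9 lie 225 bases apart, so the Tap1 window printed above is in large part also the promoter window of Psmb9. Of the 4 neighbours, Psmb8 passed and the other 3 did not, and the difference between them was not tested.

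**Figure D4:**
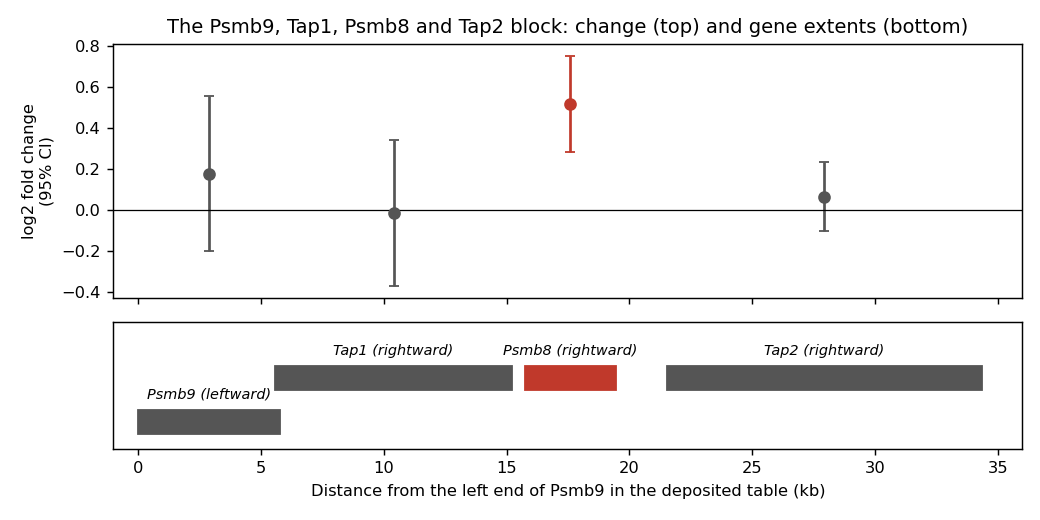
log2 fold change with 95% confidence interval (top) and gene extents (bottom) of Psmb9, Tap1, Psmb8 and Tap2, against distance from the left end of Psmb9 in kb. Psmb8, in red, is at 0.52, and the intervals of its 3 neighbours span 0.

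All of the class I presentation genes except B2m lie on chromosome 17, from 34134873 to 36343747. That stretch holds 87 other tested genes outside the lists used here, of which 6 rose (6.90%) and 14 fell (16.1%). Over all tested genes 6.15% rose and 7.42% fell. The median log2 fold change was -0.092 for the 87 and 0.0066 over all tested genes. This comparison was chosen after the values were seen.

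Within the groups, most of the 10 had their highest or lowest values in the same libraries. Tap1, Tap2, Psmb9 and H2-Q4 were each highest in siControl 5 and in siHk2 2 within their groups. B2m, Tapbp and H2-T23 were each lowest in those same libraries. With group means removed, Pearson's r over the 6 libraries was 0.97 between Tap1 and Tap2, 0.93 between H2-K1 and H2-D1, 0.86 between Tap1 and Psmb9, and 0.85 between B2m and Tapbp. It was -0.97 between B2m and Psmb9 and -0.94 between B2m and Tap1. Of the 45 pairs 21 were positive and the median r was -0.022. The points share libraries and the TPM total of each library. The fibroblast marker Col1a1 (a collagen chain) was also highest in siControl 5 and siHk2 2, at 137 and 192 TPM. Pdgfrb, another fibroblast marker, went the other way and was lowest of its groups in those same libraries, at 112 and 144 TPM. The part of either gene in this pattern was not tested. With siControl 5 and siHk2 2 left out, an alternative chosen after the data were seen, none of the 10 passed in limma. Of all genes 4.63% were called in that fit. The adjusted p in limma was 0.186 for H2-D1, 0.0843 for H2-Q4 and 0.0730 for Psmb8. An unadjusted p under 0.05 was found for 3 of the 10, with no share over all genes given beside it.

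**Figure D5:**
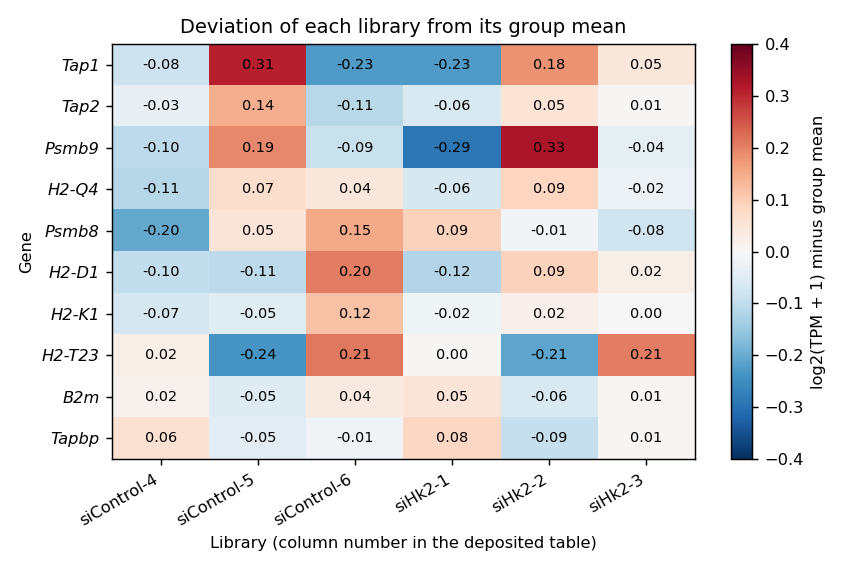
log2(TPM + 1) of each class I presentation gene minus its group mean (colour and printed value), by library. Tap1, Tap2, Psmb9 and H2-Q4 are positive in siControl 5 and siHk2 2, where B2m, Tapbp and H2-T23 are negative.

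By level, the order of the 10 by mean TPM was B2m, H2-K1, H2-D1, Tapbp, H2-Q4, Tap2, Tap1, Psmb8, Psmb9 and H2-T23. In siControl no 2 neighbours in this order overlapped in their range over the libraries, and in siHk2 the overlap was between Psmb9 and H2-T23 alone.

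Among other class I and class I-like genes the count stood near the share over all tested genes. Of 19 listed, 17 were in the table and 10 were tested, with 1 higher, none lower and a median log2 fold change of 0.19. The riser was H2-T22, a nonclassical chain of the T region known as a ligand of some gamma delta T cell receptors. It stood at 34.1, 38.2 and 38.4 TPM in siControl and at 44.4, 46.9 and 48.2 TPM in siHk2, without overlap. The mean rose from 36.9 ± 2.45 to 46.5 ± 1.89 TPM (SD, n = 3 each; log2 fold change 0.33, adjusted p = 0.0197 in limma). The call was lost without siControl 4 (0.0604), siHk2 2 (0.0716) or siHk2 3 (0.0861), and 44.7% of its 50-base windows also occur in another gene, mostly H2-T10, so the counts of that pair are uncertain.

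Peptide trimming and loading genes, which shape and fit the peptides, included 14 tested genes of 15 listed, with none higher, 1 lower and a median of -0.032. Over all tested genes 6.15% were called higher and 7.42% lower, the shares to set beside this list and the next. Thop1, a cytosolic peptidase that degrades peptides, fell from 62.8 ± 2.34 to 53.3 ± 0.774 TPM (SD, n = 3 each; log2 fold change -0.23, adjusted p = 0.0222 in limma). That call was lost without any one siHk2 library (adjusted p from 0.0601 to 0.0960). Among the 11 proteasome subunits, activators and assembly factors, all tested, 2 rose and none fell, with a median of 0.18. Psme4, the PA200 activator, rose from 70.6 ± 6.25 to 91.0 ± 4.20 TPM (log2 fold change 0.37, adjusted p = 0.0184 in limma), and Psmg1, an assembly chaperone, from 68.0 ± 3.59 to 79.5 ± 4.00 TPM (log2 fold change 0.22, adjusted p = 0.0475). Psme4 was lost without siControl 4 (0.0713), siHk2 1 (0.0637), siHk2 2 (0.0571) or siHk2 3 (0.0627), and Psmg1 was lost without any one library other than siControl 6.

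Of 23 known regulators of class I genes, 21 were tested, none rose and 3 fell, with a median of -0.0045. Over all tested genes 13.6% were called in either direction and 7.42% as lower. Rfxap, a subunit of the RFX complex that binds MHC promoters, fell from 47.2 ± 0.849 to 37.9 ± 1.07 TPM (SD, n = 3 each; log2 fold change -0.31, adjusted p = 0.00947 in limma). It stayed past the threshold without each library in turn, and in 17 of all 18 alternative fits (highest adjusted p = 0.0569 in limma). Nfya, a subunit of the NF-Y factor that binds the CCAAT letters of the Y box, fell from 32.7 ± 3.00 to 25.2 ± 1.46 TPM (log2 fold change -0.36, adjusted p = 0.0287 in limma), but not without siControl 4 (0.0965), siHk2 2 (0.0972) or siHk2 3 (0.106). Ezh2, the methyltransferase of the Polycomb complex known to silence class I genes in some tumours, fell from 81.9 ± 3.84 to 70.8 ± 3.21 TPM (log2 fold change -0.21, adjusted p = 0.0489 in limma), and this call was lost without any one library (adjusted p from 0.0709 to 0.158).

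Other named regulators of class I promoters did not pass. Nlrc5, the class I transactivator, stood at 26.3 ± 0.907 and 28.2 ± 1.45 TPM (adjusted p = 0.340 in limma), and Irf1, an interferon-induced activator, at 14.7 ± 1.47 and 16.3 ± 1.25 TPM (adjusted p = 0.341). Rfx5, another RFX subunit, stood at 7.58 ± 1.03 and 7.89 ± 0.198 TPM (adjusted p = 0.760).

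Of 11 tested interferon receptor and signalling genes (13 listed), 1 rose and none fell, with a median of -0.0053. For this list and the next, the shares over all tested genes were 6.15% higher and 7.42% lower. Ifngr2, a chain of the interferon gamma receptor, rose from 55.7 ± 2.55 to 68.3 ± 2.11 TPM (SD, n = 3 each; log2 fold change 0.29, adjusted p = 0.0149 in limma). The call was lost without siHk2 1 (0.0532), siHk2 2 (0.0628) or siHk2 3 (0.0532). Of 24 interferon-induced genes outside antigen presentation, 15 were tested, 1 rose and none fell, with a median of 0.10. The riser was Ifit3, an antiviral effector, which went from 3.01, 2.50 and 2.43 TPM in siControl to 6.59, 6.15 and 6.50 TPM in siHk2. Its log2 fold change was 1.03 (adjusted p = 0.00351 in limma) and the call was kept without each library in turn, but 51.2% of its 50-base windows also occur in Ifit3b.

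Class II presentation genes, which serve CD4 T cells and are normally restricted to specialised cells, had 4 tested of 7, with a median of 0.092. None passed the threshold in limma, and 2 had an unadjusted p under 0.05, against 30.7% of all tested genes. Cd74, the invariant chain, stood at 737 ± 44.7 and 756 ± 48.3 TPM (SD, n = 3 each; adjusted p = 0.750), more than each of the heavy chain means. H2-DMb1, a chain of the peptide editor of class II, stood at 22.8 ± 2.88 and 25.4 ± 2.57 TPM (adjusted p = 0.396). The class II chains H2-Aa, H2-Ab1 and H2-Eb1 reached at most 0.20, 0.24 and 0.76 TPM in any library.

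Cell type markers were read beside these results. Of the 6 fibroblast markers tested, Vim (vimentin, an intermediate filament) fell from 2365 ± 51.2 to 1969 ± 58.5 TPM (SD, n = 3 each; log2 fold change -0.26, adjusted p = 0.0110 in limma), named after its value was seen, and none rose. Col1a1 stood at 105 ± 30.8 and 160.3 ± 32.9 TPM (SD, n = 3 each; adjusted p = 0.106 in limma, 0.0343 without siControl 5) and Pdgfrb, a growth factor receptor, at 153 ± 35.5 and 175 ± 34.9 TPM (adjusted p = 0.543), while Dcn, Lum and Thy1 reached at most 0.35, 0.34 and 0.54 TPM in any library. Markers of macrophages and other leukocytes summed to 55.6 to 83.6 TPM in siControl and 55.7 to 65.2 TPM in siHk2, and none of 4 tested passed. Cd68, the greatest part of that sum, stood at 44.0 ± 10.9 and 36.9 ± 1.76 TPM (SD, n = 3 each, adjusted p = 0.374 in limma). Ptprc, their common surface marker, reached at most 0.10 TPM. Epithelial, neural and glial, and adipocyte lists each had 1 gene that rose (Krt7, S100b and Cidec, chosen after their values were seen). Their sums went from 1.98 to 2.43 TPM up to 6.02 to 8.57 TPM, from 90.6 to 95.6 up to 137 to 149 TPM, and from 2.87 to 4.21 up to 7.12 to 11.8 TPM. Epcam, the defining epithelial marker, reached at most 0.09 TPM. The part of these shifts in the values of H2-D1, H2-Q4 and Psmb8 was not tested.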

How the data were processed

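RNA sequencing libraries of 6 MEF samples were compared, 3 siControl and 3 siHk2, grouped by the sample titles. The values deposited by the authors are TPM in 1 table, with GRCm39 as the genome build per the submitters' processing notes. Aligner, counter, annotation release and use of strand, not given in the sources used here, could change the values. The labels' protocol describes dUTP strand marking as part of one library type, so reads of antisense neighbours may not have been separated. Depth is unknown. The siControl columns carry the numbers 4, 5 and 6, which match no title, and were taken as replicates of their group.

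From there, log2(TPM + 1) of every gene averaging at least 1 TPM was fitted in R 4.3.3 using limma 3.58.1 (two-sided moderated test with a mean-variance trend and no covariate). P-values were adjusted over all fitted genes by Benjamini-Hochberg, and 0.05 was the threshold. The pseudocount of 1 shrinks the fold changes of low genes. The fit was tested on simulated data. Tables were handled in Python 3.11.15 with pandas 2.3.3, numpy 2.4.6, scipy 1.17.1 and matplotlib 3.10.9. Promoters are RefSeq windows (GRCm38.p6, 9 of 10 genes matched, the first of 2 windows for H2-K1), searched for motifs whose letters were chosen with the class I promoters in view. Shared windows of 50 bases were counted in GENCODE M21 transcripts by gene ID. Named genes were the 10 described, Hk2, list genes past the threshold (up to 4 per list by smallest p, or the 2 most abundant where none passed), the proteasome partners, known regulators of class I promoters and 4 markers; class II chains, markers at or near 0 and marker genes that rose were named beyond this. Values of a single gene under this rule are not reported here. The genes and lists were chosen with earlier results of these data known. Alternatives were other pseudocounts (0.1 and 0.5), filters, scalings and variance models, library weights, each library left out, and, added after seeing the data, siControl 5 and siHk2 2 left out together.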

Additional observations from a re-analysis of the deposited data

How the results depend on the processing

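Of the 18 alternatives run, the count of class I presentation genes past the threshold moved from 3 to 1 with no filter, 1 with no mean-variance trend, 4 with library weights and 0 without siControl 5 and siHk2 2 together, and ranged from 0 to 4 with 1 library left out (0 without each siHk2 library). Calls over all tested genes moved as well, from 13.6% to 5.31%, 7.92%, 30.3% and 4.63% in those settings, in that order, and to 3.79 to 15.9% with 1 library left out. The other pathway genes moved from 9 to 5 with no mean-variance trend, 28 with library weights and 4 with both libraries out, and from 2 to 14 with 1 library left out. H2-K1 was at 0.21 with library weights and 0.13 to 0.23 with 1 library left out. H2-D1 was at 0.37 and H2-Q4 at 0.28 both with no filter and with no mean-variance trend, and neither was called in those settings. With 1 library left out they ran from 0.32 to 0.48 and from 0.22 to 0.32, and with both out they were at 0.28 and 0.27. Psmb8 ran from 0.42 to 0.59, and was at 0.55 with both out. Those 4 kept their direction in all 18. Hk2 passed in all 18. Values near 0 changed sign: Tap1 (0.057 with weights, 0.050 with both out, -0.13 to 0.14 with 1 out), Cd74 (-0.042 with weights, -0.017 to 0.085 with 1 out), Pdgfrb (-0.0082 to 0.33 with 1 out) and Rfx5 (-0.042 with both out, -0.028 to 0.15 with 1 out). The immunoproteasome share differed by 0.949 to 1.67 points with 1 library left out. The cause was not tested. No paired analysis was possible because the column numbers of the siControl libraries match none of the titles. Unknown depth limits Psmb9, H2-T23 and the other low genes.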
